A study of Homo sapiens with 6 samples.

Results

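The genes of the oxidative phosphorylation system were compared between HepG2 cells that carried a control vector and HepG2 cells that overexpressed the microprotein APPLE. Members were taken by symbol: the complex IV families COX4 to COX8, the ATP synthase families ATP5P, ATP5M and ATP5F1, the UQCR family with CYC1, the NDUFA, NDUFB, NDUFC, NDUFS and NDUFV families, the SDH subunits A to D, CYCS, and the protein-coding genes of the mitochondrial genome, without pseudogenes. This rule took in 112 of the 20422 genes counted, 99 of the nuclear and 13 of the mitochondrial genome. By role they were 44 genes of complex I (7 of them mitochondrial), 4 of complex II, 11 of complex III (1 mitochondrial), 22 of complex IV (3 mitochondrial) and 20 of complex V (2 mitochondrial). The rule also took in CYCS, which encodes cytochrome c, 8 complex I assembly factors named NDUFAF, and 2 read-through genes.

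In HepG2, a line established from a human liver cancer, RNA-Seq was performed on 3 libraries of cells with a vector control (NC) and 3 libraries of cells given a construct for APPLE, encoded by the lncRNA ASH1L-AS1, with a Flag tag (ORF-Flag). The methods of the study describe stable lines selected with puromycin after infection with lentiviral vectors, in which the Flag-tagged reading frame followed its own 5' untranslated region, whereas the sample labels describe transfected plasmids. Total RNA was extracted with TRIzol and libraries were made with the VAHTS Universal V10 kit, and library depth was 20081203, 24907524 and 30088457 in NC replicates 1 to 3 and 26866148, 17494668 and 27015836 counts in ORF-Flag replicates 1 to 3. Nothing in the labels or methods says that the replicates were separate cultures, so p-values measure the spread between these samples, which may be technical. All 13 hepatocyte markers listed were expressed above the filter on low counts, with summed levels between 31250 and 32680 CPM (counts scaled to library size, with normalization factors) and APOB as the most abundant. Markers of other cell types were lower: the 8 fibroblast and stellate markers summed to between 63.7 and 72.3 CPM, with ACTA2 the most abundant and DCN at 0, and the 4 endothelial markers to between 4.16 and 6.55 CPM, with PECAM1 the most abundant and KDR at 0. The 6 leukocyte markers summed to 1303, 1444 and 1438 CPM in NC and 1532, 1635 and 1533 CPM in ORF-Flag. Nearly all of that was LYZ, which encodes lysozyme, while PTPRC and CD3E were at 0 in all 6 libraries.

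Oxidative phosphorylation takes electrons from NADH at complex I and from succinate at complex II, passes them through ubiquinone, complex III and cytochrome c to oxygen at complex IV, and uses the proton gradient built on the way to make ATP at complex V. Complexes I, III, IV and V are assembled from subunits of both genomes: the mitochondrial genes encode hydrophobic core subunits and are transcribed as long polycistronic RNAs, whereas the remaining subunits are made in the cytosol and imported. Hepatocytes are rich in mitochondria, and liver cancer cells in culture use both glycolysis and respiration.

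The respiratory genes stood at nearly the same level in both groups. Of the 112 members, 101 passed the filter on low counts, and 4 of these differed at an adjusted p below 0.05 by edgeR's quasi-likelihood test with Benjamini-Hochberg adjustment over 12386 genes. COX7A2L and MT-ND3 rose, and ATP5PO and NDUFAF8 fell. This was 3.96% of the members tested, near the 4.45% of all genes tested that were called (2.47% higher and 1.98% lower in ORF-Flag). The members divided into 48 with a higher and 53 with a lower estimate in ORF-Flag, with a median log2 fold change of −0.010, against −0.001 over all genes tested. Groups did not overlap for 22 members (21.8%, 6 above and 16 below NC), against 22.4% of all genes (11.5% above and 10.9% below). At an unadjusted p below 0.05 there were 24 members (23.8%), against 18.5% of all genes. The absolute log2 difference had a median of 0.057 among members and 0.073 among all genes tested. The 95% interval of the fold change lay within 1.2-fold in either direction for 87 of the 101 members (86.1%), against 60.2% of all genes tested. Both measures depend on counts, and 99 of the 101 members had at least 100 counts in every library. The genes were not matched for counts, and the part of depth in these differences was not tested. Larger estimates, beyond 1.2-fold, were found for ATP5F1D, NDUFA11 and ATP5PO, all lower in ORF-Flag. ATP5F1D and ATP5PO were also the 2 members past 1.2-fold whose unadjusted p was under 0.05, a rule met by 4.54% of all genes. The number of members called depended on single libraries: it was 0 without NC replicate 2, ORF-Flag replicate 2 or ORF-Flag replicate 3, 2 without NC replicate 1 and 23 without NC replicate 3, while the number among all genes went from 551 to 267, 278, 199, 459 and 1058. Without ORF-Flag replicate 1 the same 4 members were called, while the number among all genes was 300. It was 12 with no filter on low counts and 8 once each library's trends with GC content and transcript length were removed, where the number among all genes was 824 and 814.

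**Figure D1:**
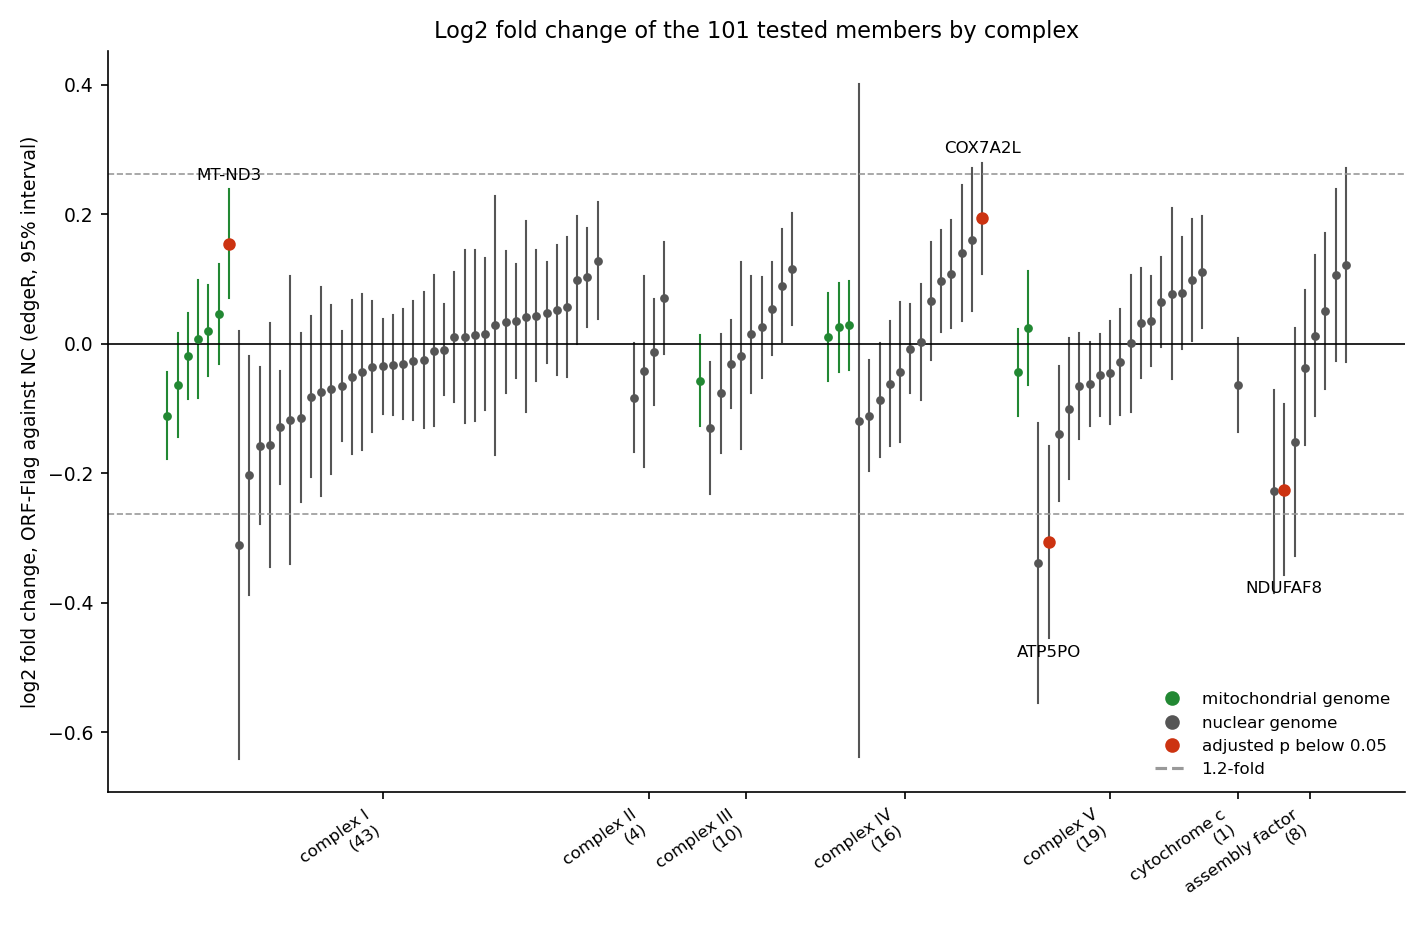
Log2 fold change of ORF-Flag against NC (vertical axis) for the 101 tested members, grouped by complex, with 95% intervals from edgeR; colours mark the genome and an adjusted p below 0.05, and dashed lines mark 1.2-fold. Most points sit close to 0, and COX7A2L, MT-ND3, ATP5PO and NDUFAF8 are marked as called.

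COX7A2L, a COX7A-related protein that helps join complexes III and IV into supercomplexes, lies at chr2:42333546-42425088 on the minus strand (GRCh38, GENCODE v29). Its level was 88.8, 83.1 and 86.1 CPM in NC and 93.9, 101.6 and 99.7 CPM in ORF-Flag. All 3 ORF-Flag libraries were above all 3 NC libraries. The mean rose from 86.0 ± 2.83 to 98.4 ± 4.01 CPM (SD, n = 3 each). This was 0.19 on the log2 scale (SE 0.042, edgeR's quasi-likelihood test, adjusted p = 0.00764). The adjusted p of this edgeR test was 0.0635 without NC replicate 2, 0.0553 without ORF-Flag replicate 2 and 0.0596 without ORF-Flag replicate 3, within a range of 0.000496 to 0.0635 over 16 alternatives. MT-ND3, a membrane-arm core subunit of complex I, spans bases 10059 to 10404 of the mitochondrial genome. It was measured at 2061, 2189 and 2279 CPM in NC and 2252, 2500 and 2517 CPM in ORF-Flag. Here the groups overlapped, because ORF-Flag replicate 1 lay below NC replicate 3. The log2 fold change was 0.15 (SE 0.041, adjusted p = 0.0280 by edgeR). That p was 0.0934, 0.0839, 0.158 and 0.187 without NC replicate 1, NC replicate 2, ORF-Flag replicate 2 and ORF-Flag replicate 3 by edgeR, and 0.195 with DESeq2, the highest of 16 alternatives that began at 0.000742.

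ATP5PO, the peripheral-stalk subunit that ties the stalk to the catalytic head of ATP synthase, lies at chr21:33903453-33915980 on the minus strand. Its level was 23.5, 24.3 and 22.5 CPM in NC and 20.8, 18.03 and 17.7 CPM in ORF-Flag. Every ORF-Flag library was below every NC library. The mean fell from 23.4 ± 0.911 to 18.9 ± 1.68 CPM (SD, n = 3 each), or by −0.31 on the log2 scale (SE 0.072, adjusted p = 0.0137 by edgeR). Of its coding bases, 69.0% lie in exons of AP000311.1 or LINC00649 on the same strand, so its counts depend on how reads in overlapping genes were assigned. The adjusted p by edgeR was 0.0778 without NC replicate 2, 0.0672 without ORF-Flag replicate 2 and 0.122 without ORF-Flag replicate 3, and it ranged from 0.00124 to 0.122 over 16 alternatives. NDUFAF8, a factor in the assembly of complex I, lies at chr17:81239239-81241281 on the plus strand. Its level was 30.9, 29.5 and 32.3 CPM in NC and 28.5, 25.8 and 25.1 CPM in ORF-Flag. Again the ORF-Flag libraries all lay below the NC libraries. The log2 fold change was −0.23 (SE 0.064, adjusted p = 0.0420 by edgeR). By edgeR that p passed 0.05 without NC replicate 1 (0.0521), NC replicate 2 (0.0646), NC replicate 3 (0.0880), ORF-Flag replicate 2 (0.136) or ORF-Flag replicate 3 (0.239), with the trends on GC content and length removed (0.0631, or 0.0640 with the replicate number also in the fit), and with DESeq2 (0.0710), and its lowest value over 16 alternatives was 0.0141.

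**Figure D2:**
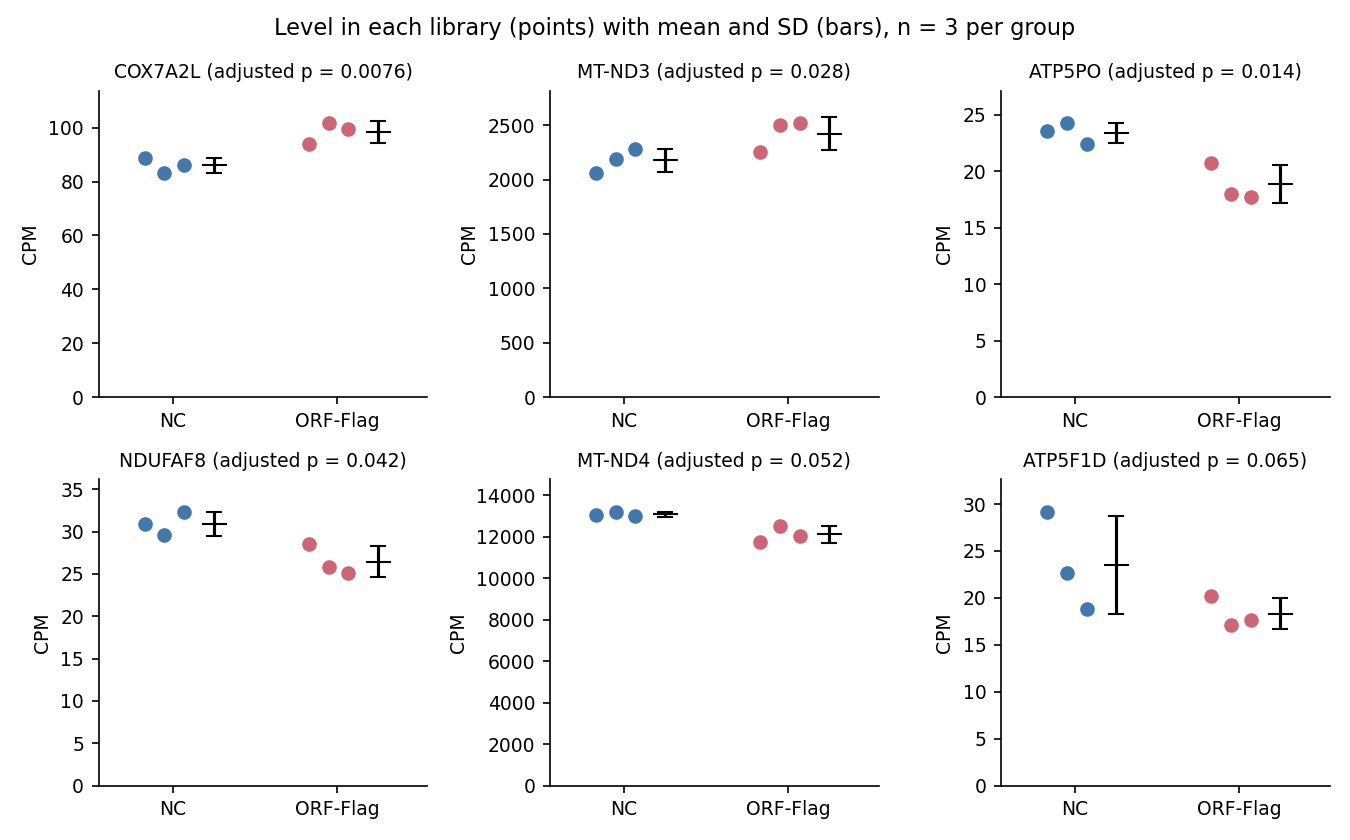
Level in CPM (vertical axis, from 0) of the 4 called members, and of MT-ND4 and ATP5F1D just outside the edgeR threshold, in each NC and ORF-Flag library (points), with the mean and SD of each group as bars, n = 3 per group. COX7A2L is higher in every ORF-Flag library, ATP5PO and NDUFAF8 are lower in every ORF-Flag library, MT-ND4 is also lower in each, and the groups overlap for MT-ND3 and ATP5F1D.

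Promoter sequences are shown for the 3 called nuclear members. Promoters of respiratory genes are known for binding sites of NRF1, of the ETS factor GABP and of YY1. ATP5PF, a peripheral-stalk gene that was not called, was added because its window held all 3 motifs given below. Sequences came from RefSeq on GRCh38.p14, each with 250 bases before and 50 bases after the annotated start, and 80 of the 99 nuclear members were matched. The starts used for all 4 genes lie inside the gene as annotated in GENCODE v29. Capitals mark the motifs searched on both strands, GCGCNTGCG for NRF1, CCGGAAG for ETS factors and AAGATGGC for YY1. In the order printed, the regions are chr21:33915755-33916054 (minus strand), chr21:25735005-25735304 (minus strand), chr2:42361168-42361467 (minus strand) and chr17:81239664-81239963 (plus strand), each written 5' to 3' along the gene.
ATP5PO: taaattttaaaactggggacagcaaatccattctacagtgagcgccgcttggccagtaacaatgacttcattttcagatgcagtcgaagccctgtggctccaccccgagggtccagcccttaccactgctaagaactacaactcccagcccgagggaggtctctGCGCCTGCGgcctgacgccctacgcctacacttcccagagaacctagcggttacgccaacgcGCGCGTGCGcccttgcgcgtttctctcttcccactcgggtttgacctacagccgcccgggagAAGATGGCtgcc
ATP5PF: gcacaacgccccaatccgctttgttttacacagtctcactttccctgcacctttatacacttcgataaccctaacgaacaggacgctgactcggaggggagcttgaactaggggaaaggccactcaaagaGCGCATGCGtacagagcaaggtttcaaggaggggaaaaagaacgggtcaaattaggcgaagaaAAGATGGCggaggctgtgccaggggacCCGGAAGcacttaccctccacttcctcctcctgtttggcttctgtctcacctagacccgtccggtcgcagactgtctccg
COX7A2L: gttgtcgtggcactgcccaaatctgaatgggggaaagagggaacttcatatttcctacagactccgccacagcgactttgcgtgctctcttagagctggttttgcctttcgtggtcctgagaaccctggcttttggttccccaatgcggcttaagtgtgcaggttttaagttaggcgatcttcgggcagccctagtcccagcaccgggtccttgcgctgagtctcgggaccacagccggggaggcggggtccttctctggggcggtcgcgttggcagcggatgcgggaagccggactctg
NDUFAF8: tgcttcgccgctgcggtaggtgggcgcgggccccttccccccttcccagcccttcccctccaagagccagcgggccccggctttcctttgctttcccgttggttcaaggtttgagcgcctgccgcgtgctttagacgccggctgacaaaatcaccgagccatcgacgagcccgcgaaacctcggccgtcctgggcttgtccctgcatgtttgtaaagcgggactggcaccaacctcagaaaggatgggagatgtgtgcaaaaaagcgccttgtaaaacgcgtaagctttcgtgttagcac

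The ATP5PO window held 2 NRF1 motifs, from 86 to 78 and from 24 to 16 bases before the start, and 1 YY1 motif from base 38 to 45 after it. ATP5PF, chosen for its motifs, was the 1 matched member with all 3, and the COX7A2L and NDUFAF8 windows held none of these letters. Across the 80 matched members, the NRF1 motif was present in 24 (30.0%), the ETS motif in 21 (26.3%) and the YY1 motif in 11 (13.8%). The shares over all 35116 promoters of the table were 7.47%, 10.3% and 2.89%, and over the promoters of 10026 genes tested here 14.9%, 19.7% and 5.46%. Respiratory members thus carried each motif in a larger share of promoters than either set. The median log2 fold change of tested members was −0.031 with the NRF1 motif (22 genes) and −0.010 without it (51 genes). For the ETS motif it was −0.020 (20 genes) against −0.010 (53 genes), and for the YY1 motif −0.049 (10 genes) against −0.007 (63 genes). A match describes the letters and is not evidence of binding, and ATP5PF, measured at 93.0, 96.3 and 98.5 CPM in NC and 91.6, 96.8 and 94.5 CPM in ORF-Flag, had overlapping groups and a log2 fold change of −0.03 (95% interval −0.11 to 0.05).

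The 13 mitochondrial members held 9.9996%, 10.3% and 10.2% of the counts in NC and 9.76%, 10.3% and 10.1% in ORF-Flag, and the groups overlapped. The means were 10.2% ± 0.141 and 10.1% ± 0.278 (SD, n = 3 each; exact two-sided permutation test, p = 0.70, where 0.10 is the smallest p that 3 against 3 allows). In bulk RNA such as this, fewer cells that express a gene and less of its RNA per cell cannot be told apart. Of the 13 genes, 8 had a higher and 5 a lower estimate in ORF-Flag, with a median log2 fold change of 0.011, and each 95% interval lay within 1.2-fold. Scaling on nuclear genes alone gave the same median. Without 1 library it ranged from −0.011 to 0.037, below 0 without NC replicate 1, ORF-Flag replicate 2 or ORF-Flag replicate 3. Removing the trends with GC content and length moved it to −0.036. MT-ND3 alone then had a higher estimate, and the remaining mitochondrial members had a lower one. Per kb of coding sequence, the mitochondrial genes stood at a median of 6647 CPM (4510 to 17720), against 130.2 CPM for the tested nuclear members. MT-CO1, the catalytic subunit of complex IV, was highest at 17720 CPM per kb, followed by MT-CO3 at 14960 and MT-CO2 at 13350. MT-CYB, the complex III subunit that carries the quinone sites, was lowest at 4510. Between 3.5% and 66.7% of the 31-base stretches of these genes occur in other annotated transcripts, so part of their reads could have been assigned elsewhere or dropped.

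Complex I has 7 mitochondrial members, all core subunits of the membrane arm. MT-ND4, a proton-pumping subunit, was measured at 13060, 13210 and 13000 CPM in NC and 11770, 12550 and 12040 CPM in ORF-Flag. Each ORF-Flag library lay below each NC library. Its log2 fold change of −0.11 (SE 0.033) just missed the threshold, with an adjusted p of 0.0518 by edgeR that ranged from 0.00150 to 0.188 over 16 alternatives. MT-ND4 was called in 8 of these: with DESeq2 (adjusted p = 0.00926), with limma-voom (0.00868) and, by edgeR, without TMM (0.0321), with no filter on low counts (0.0384), with the replicate number in the fit (0.0394), without NC replicate 3 (0.0217), and with the trends on GC content and length removed (0.00150, or 0.00169 with the replicate number also in the fit). MT-ND4L, whose reading frame precedes and overlaps that of MT-ND4 on the same RNA, was at 3050, 3294 and 3234 CPM in NC and 3106, 3370 and 3416 CPM in ORF-Flag. Its groups overlapped, with a log2 fold change of 0.05 (95% interval −0.03 to 0.12). MT-ND5, another pumping subunit, was at 9043, 9474 and 9187 CPM in NC and 8159, 9285 and 9065 CPM in ORF-Flag. The low value of ORF-Flag replicate 1 set most of its difference (log2 fold change −0.06, 95% interval −0.14 to 0.02; −0.009 without that library). MT-ND1, which lines the quinone channel, had a log2 fold change of 0.02 (95% interval −0.05 to 0.09), and MT-ND2 of −0.02 (−0.09 to 0.05). MT-ND6, encoded on the opposite strand from the other mitochondrial members, was at 2561, 2723 and 2716 CPM in NC and 2417, 2849 and 2778 CPM in ORF-Flag, so its groups overlapped. Whether strand was used in counting is not given in the sources used here, and reads of MT-ND6 and of RNA antisense to it cannot be told apart.

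The balance between mitochondrial transcripts can be read within each library, free of scaling between libraries. MT-ND3 made up 2.08%, 2.14% and 2.23% of the mitochondrial counts in NC and 2.31%, 2.41% and 2.49% in ORF-Flag. MT-ND4 made up 13.2%, 12.9% and 12.7% in NC and 12.1%, 12.1% and 11.9% in ORF-Flag. On this scale, MT-ND3 was higher and MT-ND4 lower in every ORF-Flag library. MT-ND5 was also lower in each, at 9.11%, 9.25% and 8.97% in NC and 8.36%, 8.97% and 8.95% in ORF-Flag, where the nearest libraries almost touched. The other 10 genes overlapped between groups. Thus 3 of the 13 genes were separate, near the 22.4% of all genes tested whose groups did not overlap in CPM. In CPM, 7.69% of the mitochondrial members did not overlap. Expressed as a ratio, there were 15.8, 16.6 and 17.5 MT-ND3 counts per 100 MT-ND4 counts in NC and 19.1, 19.9 and 20.9 in ORF-Flag, or 16.6 ± 0.874 and 19.99 ± 0.886 (SD, n = 3 each). This pair was chosen after its values were seen, and no test is given.

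**Figure D3:**
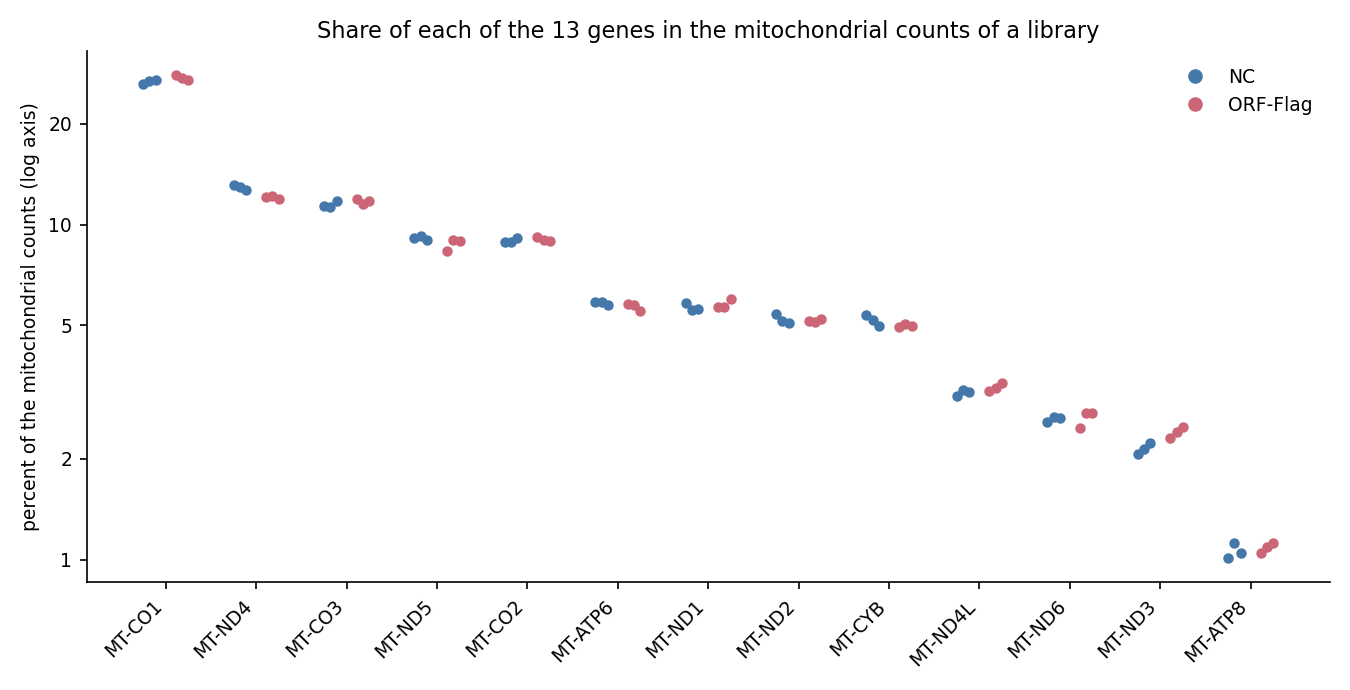
Percent of the mitochondrial counts of a library (log axis) taken by each of the 13 mitochondrial genes, with 1 point per library for NC and ORF-Flag. MT-CO1 takes the largest share, and MT-ND3 is higher and MT-ND4 lower in the 3 ORF-Flag libraries.

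The other mitochondrial members belong to complexes III, IV and V. MT-CYB was at 5339, 5308 and 5095 CPM in NC and 4839, 5229 and 5065 CPM in ORF-Flag, with overlapping groups (log2 fold change −0.06, 95% interval −0.13 to 0.01). MT-CO1 was at 26090, 27470 and 27610 CPM in NC and 27260, 28250 and 27300 CPM in ORF-Flag. The 2 groups overlapped in part, with NC replicate 1 lowest and ORF-Flag replicate 2 highest, and the log2 fold change was 0.03 (95% interval −0.04 to 0.10). The 2 remaining core subunits of complex IV, MT-CO2 and MT-CO3, gave log2 fold changes of 0.01 (95% interval −0.06 to 0.08) and 0.03 (−0.04 to 0.09). MT-ATP6, which forms the proton channel of ATP synthase beside the c-ring, gave −0.04 (95% interval −0.11 to 0.02), and −0.092 with the trends on GC content and length removed. It was called in 1 of 16 alternatives, with these trends removed and the replicate number in the fit (adjusted p = 0.0331 by edgeR). Its neighbour MT-ATP8, read from the same RNA in an overlapping frame, gave 0.02 (95% interval −0.06 to 0.11).

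Among the nuclear genes of complex I, 36 of 37 were tested, 15 with a higher and 21 with a lower estimate. None was called by edgeR, DESeq2, limma-trend or limma-voom (6 at an unadjusted p below 0.05 by edgeR, 18.5% over all genes tested). Their median log2 fold change was −0.026, both for the 7 core subunits of the peripheral arm (−0.026) and nearly so for the 29 supernumerary subunits (−0.025). NDUFB4, a supernumerary subunit of the membrane arm, had the largest increase in estimate. Its level was 92.0, 94.4 and 105.1 CPM in NC and 106.3, 106.1 and 107.0 CPM in ORF-Flag. The groups did not overlap, though NC replicate 3 came close, and the log2 fold change was 0.13 (95% interval 0.04 to 0.22, adjusted p = 0.0980 by edgeR; 0.00196 without NC replicate 3 and 0.0450 with no filter on low counts, the 2 that called it among 16 alternatives up to 0.319). NDUFA11, a membrane-arm subunit, had the lowest estimate, at 4.65, 3.40 and 3.84 CPM in NC and 3.24, 3.50 and 2.85 CPM in ORF-Flag. These groups overlapped, and the interval of its log2 fold change of −0.31 was wide (95% interval −0.64 to 0.02), at low counts and with 74.0% of its coding bases inside exons of AC024592.3. NDUFS5 stood highest per kb of coding sequence among the nuclear genes of the complex, at 677.3 CPM, with a log2 fold change of 0.05 (95% interval −0.03 to 0.13). NDUFV1, which binds NADH and FMN, is given as 1 core subunit chosen after its values were seen. It was at 89.7, 89.5 and 87.1 CPM in NC and 84.4, 76.7 and 81.6 CPM in ORF-Flag, lower in each ORF-Flag library, with a log2 fold change of −0.13 and an adjusted p of 0.0814 by edgeR (0.0384 without NC replicate 3 and 0.0490 with no filter on low counts).

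The 8 NDUFAF assembly factors of complex I act on intermediates and are absent from the finished enzyme. By edgeR, 2 of the 8 were at an unadjusted p below 0.05, against 18.5% of all genes tested. The 8 factors divided evenly, 4 with a higher and 4 with a lower estimate, around a median log2 fold change of −0.012. That median was 0.028 without NC replicate 3, −0.035 without NC replicate 1 and −0.044 with the trends on GC content and length removed. NDUFAF8, which fell as described above, was also the most abundant of these factors per kb of coding sequence, at 129.2 CPM. Without division by length, NDUFAF4 was higher (means of 32.63 CPM in NC and 33.78 CPM in ORF-Flag, against 30.92 and 26.45 for NDUFAF8). NDUFAF3 had an equally low estimate, with 18.8, 17.2 and 16.4 CPM in NC and 15.5, 14.0 and 14.96 CPM in ORF-Flag. Its ORF-Flag libraries lay below its NC libraries (log2 fold change −0.23, 95% interval −0.38 to −0.07, adjusted p = 0.0909 by edgeR; 0.0332 without NC replicate 3, the lowest of 16 alternatives up to 0.263). NDUFAF6 had the highest estimate, at 15.1, 16.7 and 17.0 CPM in NC and 17.1, 18.3 and 17.9 CPM in ORF-Flag. Its groups did not overlap either, by a narrow margin, and the log2 fold change was 0.12 (95% interval −0.03 to 0.27).

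Complex II, which is also the succinate dehydrogenase of the TCA cycle and is encoded by nuclear genes alone, had all 4 members tested and none called by edgeR, DESeq2, limma-trend or limma-voom (0 at an unadjusted p below 0.05). The median log2 fold change was −0.028, and it went to −0.060 once the trends with GC content and length were removed. SDHA, the flavoprotein subunit, had the lowest estimate, at 84.5, 85.9 and 82.2 CPM in NC and 80.5, 81.2 and 76.9 CPM in ORF-Flag. Every ORF-Flag library was slightly below every NC library (log2 fold change −0.08, 95% interval −0.17 to 0.00). SDHC, a membrane anchor, had the highest estimate and the highest level per kb of coding sequence (293.9 CPM). It was at 136.0, 146.3 and 153.1 CPM in NC and 145.8, 157.0 and 155.7 CPM in ORF-Flag, with overlapping groups (log2 fold change 0.07, 95% interval −0.02 to 0.16).

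In complex III, 9 of 10 nuclear members were tested, 5 with a higher and 4 with a lower estimate. None was called by edgeR, DESeq2, limma-trend or limma-voom (3 at an unadjusted p below 0.05 by edgeR, 18.5% over all genes tested). UQCRB, a supernumerary subunit near the quinone site, had the highest estimate. It was at 198.1, 197.0 and 225.7 CPM in NC and 220.9, 224.7 and 227.9 CPM in ORF-Flag. NC replicate 3 lay among the ORF-Flag libraries while the other NC libraries lay below them (log2 fold change 0.12, 95% interval 0.03 to 0.20). CYC1, the cytochrome c1 subunit that passes electrons to cytochrome c, had the lowest estimate, at 84.8, 74.0 and 74.5 CPM in NC and 73.2, 71.2 and 68.2 CPM in ORF-Flag. The groups were separate by a small gap, with NC replicate 1 well above the rest (log2 fold change −0.13, 95% interval −0.23 to −0.03). By edgeR, the adjusted p was 0.125 for UQCRB and 0.146 for CYC1. Without NC replicate 3, both passed the threshold by edgeR, at 0.000629 and 0.0407. This was the 1 alternative of 16 that called CYC1, while UQCRB was called in 3, also by edgeR with no filter on low counts (0.0403) and with the replicate number in the fit (0.0473). UQCRH, a hinge protein of the complex, stood highest per kb of coding sequence among its nuclear genes, at 1471 CPM. CYCS, the mobile carrier between complexes III and IV, was at 233.3, 234.7 and 248.4 CPM in NC and 229.2, 233.2 and 223.8 CPM in ORF-Flag. Its groups were separated by less than the spread within either (log2 fold change −0.06, 95% interval −0.14 to 0.01).

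Complex IV had 13 of 19 nuclear members tested, 7 with a higher and 6 with a lower estimate around a median log2 fold change of 0.003. That median was −0.028 without NC replicate 2, 0.026 without NC replicate 1 and −0.02 with the trends on GC content and length removed. By edgeR, 6 of the 13 were at an unadjusted p below 0.05, against 18.5% of all genes tested. COX7A2L, called higher, had the largest estimate. COX7B and COX6C, small supernumerary subunits that span the inner membrane, are described after their values were seen. COX7B was at 70.5, 70.8 and 84.0 CPM in NC and 82.2, 86.9 and 84.2 CPM in ORF-Flag. COX6C was at 131.6, 137.2 and 160.6 CPM in NC and 156.3, 164.8 and 154.4 CPM in ORF-Flag. In both genes NC replicate 3 sat with the ORF-Flag libraries and the other NC libraries sat below, as for UQCRB. Their adjusted p by edgeR was 0.0878 and 0.122, and without NC replicate 3 it was 0.000264 for COX7B and 9.58e-05 for COX6C, the lowest of 16 alternatives for each. COX7B was called in 4 of these, the others being, by edgeR, no filter on low counts (0.0112) and the replicate number in the fit without and with the trends removed (0.0429 and 0.0434), and COX6C in 2, the other being no filter on low counts (0.0105 by edgeR). COX7C was the most abundant nuclear subunit of the complex per kb of coding sequence, at 1307 CPM, with a log2 fold change of 0.10 (95% interval 0.02 to 0.18, adjusted p = 0.164 by edgeR and 0.00642 without NC replicate 3). COX5B and COX6B1, chosen after their values were seen, were also at an unadjusted p below 0.05. COX5B was lower, with overlapping groups (log2 fold change −0.11, adjusted p = 0.142 by edgeR). It was called in 2 of 16 alternatives, with the trends removed without (0.0366 by edgeR) and with the replicate number in the fit. COX6B1 was higher in each ORF-Flag library (0.11, adjusted p = 0.138 by edgeR). It was called in these 2 and without NC replicate 3 (0.0334 by edgeR).

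The tissue-restricted isoforms of complex IV were nearly silent beside their widely expressed partners. COX4I2, COX6A2 and COX8C had 0 counts in all 6 libraries, where 3 counts, the floor for a count of 0, correspond to between 0.100 and 0.171 CPM (counting error only). Their partners COX4I1, COX6A1 and COX8A stood at 432.5, 151.0 and 182.0 CPM per kb of coding sequence. COX7A1, the heart and muscle isoform, had 0, 2 and 2 counts in NC and 11, 3 and 5 counts in ORF-Flag, beside COX7A2 at 310.2 CPM per kb. The testis isoform COX6B2 had 9, 10 and 6 counts in NC and 4, 1 and 8 in ORF-Flag, with 100% of its coding bases inside exons of AC020922.1, and COX7B2 had at most 1 count in any library. NDUFA4L2, a hypoxia-inducible paralog of NDUFA4, was the single member of this class that passed the filter on low counts. It was at 1.43, 1.32 and 1.37 CPM in NC and 1.27, 0.804 and 1.59 CPM in ORF-Flag, with overlapping groups and a wide interval (log2 fold change −0.12, 95% interval −0.64 to 0.40). Per kb of coding sequence it stood at 4.97 CPM, against 698.7 CPM for NDUFA4.

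Complex V had 17 of 18 nuclear members tested, 8 with a higher and 9 with a lower estimate, with a median log2 fold change of −0.028. By edgeR, 5 of the 17 were at an unadjusted p below 0.05, against 18.5% of all genes tested. By part of the enzyme, the medians were −0.048 for the 5 genes of the F1 sector and −0.036 for the 4 genes of the peripheral stalk. They were −0.065 for the 3 c-ring genes and 0.078 for the 5 small membrane subunits. ATP5F1D, the delta subunit of the central stalk, had the lowest estimate of all tested members. It was at 29.2, 22.7 and 18.8 CPM in NC and 20.2, 17.1 and 17.7 CPM in ORF-Flag. NC replicate 1 stood far above the others, and NC replicate 3 lay among the ORF-Flag libraries. The log2 fold change was −0.34 (95% interval −0.56 to −0.12, adjusted p = 0.0653 by edgeR), and it was −0.17 without NC replicate 1 (0.300 by edgeR) and −0.49 without NC replicate 3 (0.000248 by edgeR). ATP5F1D was called in 5 of 16 alternatives, the others being, by edgeR, no filter on low counts (0.000258), the replicate number in the fit (0.0110), the trends on GC content and length removed (0.0477), and these last 2 together (0.0137). ATP5MJ, a small membrane subunit, had the highest estimate, at 109.6, 106.8 and 117.9 CPM in NC and 115.9, 120.4 and 125.1 CPM in ORF-Flag. Its groups overlapped (log2 fold change 0.11, 95% interval 0.02 to 0.20, adjusted p = 0.141 by edgeR and 0.0136 without NC replicate 3). ATP5F1E, the epsilon subunit, was the most abundant nuclear member per kb of coding sequence, at 1583 CPM, with a log2 fold change of 0.03 (95% interval −0.05 to 0.12). Without division by length, ATP5F1B was higher (means of 756.3 CPM in NC and 731.7 CPM in ORF-Flag, against 239.3 and 244.9 for ATP5F1E).

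The 3 c-ring genes encode the same mature protein behind different import sequences. ATP5MC3 supplied the most RNA, at 608.7 CPM per kb of coding sequence, followed by ATP5MC1 at 202.5 and ATP5MC2 at 143.4. ATP5MC1 was at 95.8, 84.3 and 80.2 CPM in NC and 79.7, 76.2 and 79.4 CPM in ORF-Flag. Its groups were separate by a gap smaller than the spread within NC (log2 fold change −0.14, adjusted p = 0.127 by edgeR). ATP5MC1 was called in 4 of 16 alternatives, all by edgeR: without NC replicate 3 (0.00724), with no filter on low counts (0.0308), and with the trends on GC content and length removed (0.0456, or 0.0249 with the replicate number also in the fit). ATP5MC2 and ATP5MC3 had overlapping groups, with log2 fold changes of 0.00 and −0.07. ATP5PB and ATP5PD, stalk subunits like ATP5PO, had log2 fold changes of 0.04 (95% interval −0.03 to 0.10) and −0.04 (−0.12 to 0.04). Within the peripheral stalk, ATP5PO thus stood at 33.1 CPM per kb of coding sequence beside 286.3 for ATP5PB, 362.0 for ATP5PD and 293.5 for ATP5PF.

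Summed over a complex, levels overlapped between groups for complexes I to V, in the genes of either genome. The 37 nuclear genes of complex I summed to 2377, 2316 and 2426 CPM in NC and 2383, 2365 and 2367 CPM in ORF-Flag. Complex V, with 18 nuclear genes, summed to 3364, 3226 and 3389 CPM in NC and 3278, 3290 and 3267 CPM in ORF-Flag. For the 19 nuclear genes of complex IV the sums were 1459, 1401 and 1529 CPM in NC and 1489, 1531 and 1526 CPM in ORF-Flag. The means of these nuclear sums differed by less than the SD of the NC libraries. The mitochondrial genes of complex I summed to 40940, 41890 and 41360 CPM in NC and 38290, 41740 and 41200 CPM in ORF-Flag, and MT-CYB, the 1 such gene of complex III, had a mean of 5247 ± 132.9 CPM in NC and 5045 ± 195.6 CPM in ORF-Flag (SD, n = 3 each). For both, the means differed by more than the NC SD although the libraries overlapped. All 99 nuclear members together reached 9649, 9371 and 9892 CPM in NC and 9636, 9676 and 9617 CPM in ORF-Flag. The 3 ORF-Flag values (SD 30.1) thus lay inside the wider NC range (SD 260.6). As a share of all counts, nuclear members held 0.965% ± 0.0228 in NC and 0.963% ± 0.00104 in ORF-Flag (SD, n = 3 each; exact two-sided permutation test, p = 1.0).

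**Figure D4:**
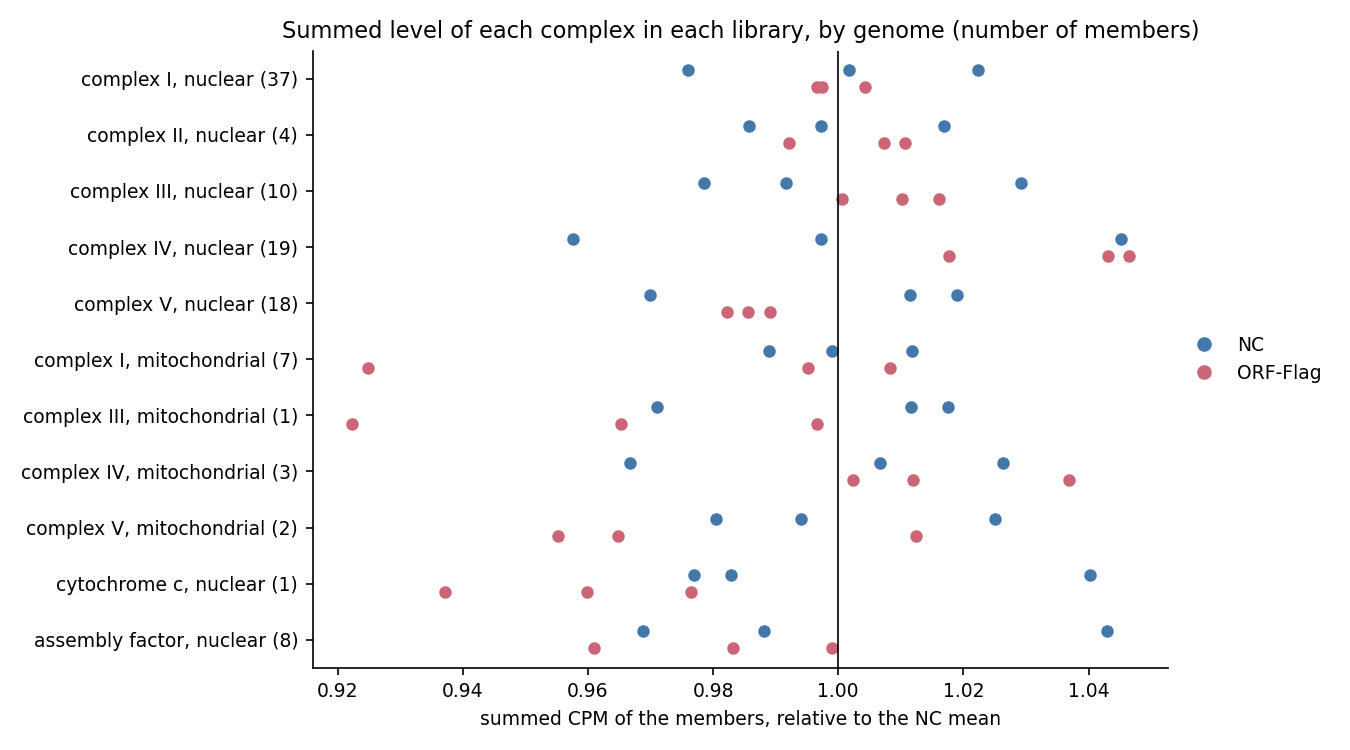
Summed CPM of the members of each complex relative to the NC mean (horizontal axis), with 1 point per library and separate lines for nuclear and mitochondrial genes. Libraries of both groups overlap in all 5 complexes, and for the single gene of cytochrome c they are barely apart.

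Of the 11 members that did not pass the filter on low counts, 5 were at 0 in every library. Beside COX4I2, COX6A2 and COX8C, these were UQCR11, a complex III subunit, and the read-through gene NDUFC2-KCTD14. NDUFA7, a supernumerary subunit of complex I, had 0 to 4 counts. For NDUFA7, UQCR11, COX6B2 and both read-through genes, 100% of the coding bases lie in same-strand exons of other annotated genes. The second read-through gene, ATP5MF-PTCD1, had 2 to 7 counts and ATP5MGL, a retrogene copy of ATP5MG, 0 to 3. How reads that fall in 2 genes were counted is not given in the sources used here. Among tested nuclear members, 11 shared at least 50% of their coding bases with another gene on the same strand, a limit set after the values were seen; for NDUFV2 the share was 100%. Their median level was 37.7 CPM per kb of coding sequence, against 147.2 for the other 77. In this group 2 genes had a higher and 9 a lower estimate (median log2 fold change −0.061), against 38 and 39 (−0.007) in the rest. The part of shared bases in these differences was not tested.

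Members also differed by base composition. Across the 88 tested nuclear members, the log2 fold change was lower where the GC content of the longest transcript was higher (Pearson r −0.448, Spearman rho −0.375, across genes that share the same 6 libraries and are not independent replicates), against −0.168 and −0.240 across 12345 genes tested. The median log2 fold change was 0.035 for the 33 members with GC content below 45% and −0.075 for the 20 above 55%. Below 45% GC, 19 members had a positive and 14 a negative estimate, the called ATP5PO (44.1% GC) among the latter, and above 55% GC 7 were positive and 13 negative. By library, the median deviation of the 20 members above 55% GC from the mean over the libraries was 0.107, −0.003 and 0.011 in NC and −0.013, −0.046 and −0.038 in ORF-Flag. NC replicate 1 thus stood above the rest, as it did over all 3821 genes above 55% GC, with 0.082, 0.023 and −0.029 in NC and −0.002, −0.027 and −0.030 in ORF-Flag. Once each library's trends with GC content and length over all genes were removed, the correlations of the members were −0.211 and −0.171, the medians were 0.005 and −0.029, and COX7A2L, MT-ND3 and ATP5PO remained called with adjusted p values of 0.00548, 0.0439 and 0.00400 by edgeR. The log2 fold change of MT-ND3 shrank from 0.1548 to 0.0985, while that of COX7A2L went from 0.194 to 0.173 and that of ATP5PO from −0.307 to −0.327. NDUFAF8, no longer called, went from −0.225 to −0.187.

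**Figure D5:**
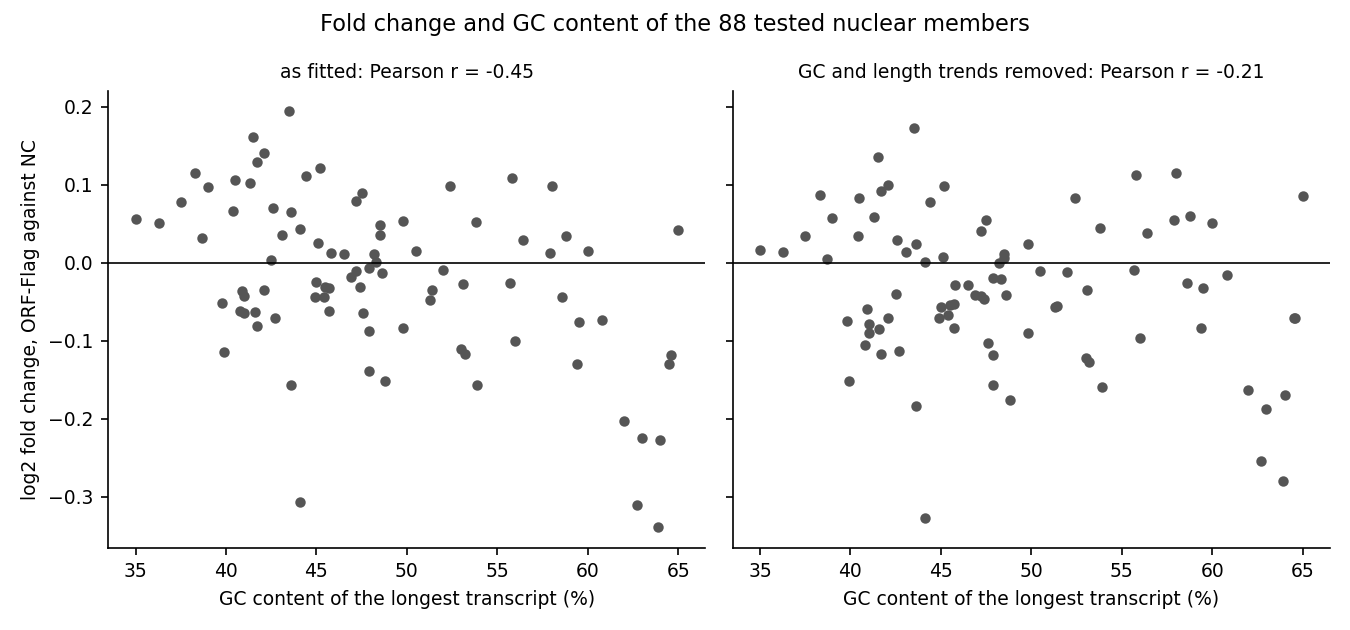
Log2 fold change of ORF-Flag against NC (vertical axis) against GC content of the longest transcript in percent (horizontal axis) for the 88 tested nuclear members, as fitted and with each library's trends on GC content and length removed. The Pearson r of −0.448 as fitted is −0.211 after removal.

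Genes that build, supply or regulate the respiratory chain were compared in the same way. Over all genes tested, 18.5% were at an unadjusted p below 0.05 and 4.45% were called by edgeR. None of the 43 assembly factors outside the symbol rule was called by edgeR, DESeq2, limma-trend or limma-voom (21 higher and 22 lower in estimate, 8 at an unadjusted p below 0.05, median log2 fold change −0.001). Of 28 genes for expression and upkeep of mitochondrial DNA, 10 had a higher and 18 a lower estimate (6 at an unadjusted p below 0.05 by edgeR), and MTERF4, which acts in assembly of the mitochondrial ribosome, fell. Its level was 39.3, 39.2 and 37.7 CPM in NC and 31.4, 32.9 and 33.9 CPM in ORF-Flag, with all ORF-Flag libraries below NC. The log2 fold change of MTERF4 was −0.24 (SE 0.055, adjusted p = 0.0109 by edgeR; 0.0633 without NC replicate 2 and 0.0679 without ORF-Flag replicate 1, the highest of 16 alternatives down to 0.00221). Among 13 tested of 15 nuclear regulators of respiratory genes, 5 had a higher and 8 a lower estimate (4 at an unadjusted p below 0.05 by edgeR), and MYC, a transcription factor of growth and mitochondrial biogenesis, fell. MYC was at 187.6, 171.5 and 175.3 CPM in NC and 162.0, 160.1 and 165.0 CPM in ORF-Flag, without overlap. Its log2 fold change was −0.13 (SE 0.037, adjusted p = 0.0416 by edgeR; 0.122 without NC replicate 1, and 0.139, 0.157 and 0.115 without ORF-Flag replicates 1, 2 and 3, over a range of 0.0124 to 0.157; 0.0511 by limma-voom).

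Of the mitochondrial ribosomal proteins, which translate the 13 mitochondrial members, 76 of 78 were tested, 45 with a higher and 31 with a lower estimate (median log2 fold change 0.021, 10 at an unadjusted p below 0.05 by edgeR). MRPS10, a small-subunit protein, rose. It was at 31.1, 34.6 and 33.9 CPM in NC and 39.8, 38.8 and 37.1 CPM in ORF-Flag, higher in each ORF-Flag library. The log2 fold change was 0.21 (SE 0.057, adjusted p = 0.0313 by edgeR), and by edgeR the call was lost without NC replicate 1 (0.0999), NC replicate 2 (0.0598), or ORF-Flag replicates 1, 2 and 3 (0.136, 0.0946 and 0.0607), within a range of 0.0124 to 0.136. The 14 TCA cycle enzymes, which supply NADH and succinate, had 3 higher and 11 lower estimates with a median of −0.036, none called by edgeR, DESeq2, limma-trend or limma-voom (3 at an unadjusted p below 0.05). Of 23 proteins of mitochondrial membranes and import, 18 had a lower estimate (median −0.029, 5 at an unadjusted p below 0.05 by edgeR), and HSPE1, the co-chaperonin of HSP60 in the matrix, fell. HSPE1 was at 202.0, 197.7 and 192.6 CPM in NC and 163.4, 167.1 and 149.1 CPM in ORF-Flag. The groups were far apart, with a log2 fold change of −0.31 (SE 0.040, adjusted p = 2.61e-05 by edgeR), and HSPE1 was called in all 16 alternatives, at 0.000924 or less. It thus changed by more, relative to the spread between libraries, than any of the 101 tested respiratory members.

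Cell type markers also held called genes. Of the 13 hepatocyte markers, 8 had a higher and 5 a lower estimate. APOA2 and FGB rose, with log2 fold changes of 0.16 and 0.14 (adjusted p = 0.00925 and 0.0232 by edgeR). They made up 15.4% of the list, against 4.45% of all genes tested. APOB, the most abundant, had a lower estimate (log2 fold change −0.07, adjusted p = 0.2435 by edgeR). LYZ, 1 of 4 leukocyte markers tested, rose by 0.17 on the log2 scale (adjusted p = 0.0112 by edgeR). LYZ was at 1255, 1401 and 1396 CPM in NC and 1488, 1591 and 1488 CPM in ORF-Flag, and its edgeR p was 0.0998 without ORF-Flag replicate 2. The call of APOA2 was lost by edgeR without NC replicate 2 (0.0646), ORF-Flag replicate 2 (0.0512) or ORF-Flag replicate 3 (0.0757). That of FGB was lost by edgeR without NC replicates 1 and 2 (0.0624 and 0.0927) or ORF-Flag replicates 1, 2 and 3 (0.117, 0.0814 and 0.0646). The summed hepatocyte markers, at 31250, 31880 and 32400 CPM in NC and 32680, 32260 and 32350 CPM in ORF-Flag, overlapped between groups. The endothelial markers summed to 4.75, 4.16 and 5.01 CPM in NC and 6.55, 5.51 and 6.26 CPM in ORF-Flag, and the fibroblast and stellate markers to 71.3, 71.1 and 63.7 CPM in NC and 72.01, 72.3 and 71.8 CPM in ORF-Flag. Both sums were higher in every ORF-Flag library, though nearly all of the latter was ACTA2 (70.46, 70.04 and 62.76 CPM in NC, 71.3, 71.67 and 70.94 CPM in ORF-Flag), and PDGFRB, the 1 other fibroblast or stellate marker tested, had a lower mean in ORF-Flag (0.827 CPM in NC, 0.618 CPM in ORF-Flag). Neither list held a gene called by edgeR, DESeq2, limma-trend or limma-voom, and 1 endothelial and 0 fibroblast or stellate markers were at an unadjusted p below 0.05 by edgeR. That marker was PECAM1, at 4.45, 3.84 and 4.78 CPM in NC and 6.03, 5.28 and 5.78 CPM in ORF-Flag (adjusted p = 0.0958 by edgeR). The part of the leukocyte, endothelial and fibroblast markers in the values of the respiratory genes was not tested.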

How the data were processed

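The comparison used 6 RNA-Seq libraries of HepG2 cells, 3 NC and 3 ORF-Flag, with groups and replicate numbers taken from the sample labels. The table that the authors deposited holds whole-number read counts of 20422 Ensembl genes, with no normalization. The submitters' processing notes name cutadapt 1.11, HISAT2 2.1.0, featureCounts 1.6.0, edgeR and the GRCh38 build. The strand setting and the handling of reads that overlap 2 genes are not given in the sources used here, so levels of overlapping genes may be understated. Chi-square per degree of freedom between replicates was 2.39 to 5.23, so no pair within a group looked like 1 library deposited again.

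The deposited counts were compared with edgeR 4.0.16 in R 4.3.3, with filterByExpr (12386 genes kept), TMM normalization (factors 0.995 to 1.0072), glmQLFit, glmQLFTest and Benjamini-Hochberg adjustment over all genes tested. The edgeR, DESeq2, limma-trend and limma-voom fits were tested on simulated data; the other alternatives were not. Levels are CPM with TMM factors, divided, where genes are compared with each other, by the coding length of the principal transcript in GENCODE v29; reads on untranslated regions are included. GC content was taken from the longest transcript. Alternatives were DESeq2 1.42.0, limma-trend and limma-voom (limma 3.58.1), totals without TMM, scaling on nuclear genes, no filter, at least 10 counts in every library, a replicate block, each library left out, trends on GC content and length (splines with 5 degrees of freedom) removed with and without the block, a fold change above 1.2 with an unadjusted p below 0.05, and structural subunits alone. Scripts used Python 3.11.15, pandas 2.3.3 and matplotlib 3.10.9.

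Named genes were all mitochondrial members, members at an adjusted p below 0.05, the highest and lowest nuclear estimate and the most abundant member of each complex, tissue-restricted isoforms, and called genes of the other lists: assembly factors outside the symbol rule, mitochondrial DNA expression, nuclear regulators, mitochondrial ribosomal proteins, TCA cycle enzymes, membrane and import proteins, and markers of hepatocytes, fibroblasts and stellate cells, leukocytes and endothelium. Members and lists were chosen with earlier results of these data known. Others named (among them COX7B, COX6C, NDUFV1, the c-ring and stalk genes, and the partners of the isoforms) were chosen after their values were seen.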

Additional observations from a re-analysis of the deposited data

How the results depend on the processing

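The 4 members called (2 higher and 2 lower in ORF-Flag) became 12 with no filter on low counts (6 and 6), 8 with trends on GC content and length removed (3 and 5), 3 for structural subunits alone (2 and 1), 3 with DESeq2 (1 and 2), and 2 when called past 1.2-fold at an unadjusted p under 0.05 (0 and 2). Among all genes, the 551 calls became 824 with no filter, 814 with the trends removed, 431 with DESeq2 and 562 past 1.2-fold at an unadjusted p under 0.05. Leaving out 1 library gave 0 to 23 calls, 0 to 15 higher and 0 to 8 lower, while calls among all genes were between 199 and 1058. Both were highest without NC replicate 3, where members gained calls by the larger factor. The replicate block gave 8 calls (4 and 4), and 11 (4 and 7) with the trends also removed, while calls among all genes went from 551 to 731 and 885; same-numbered libraries correlated at 0.067, 0.027 and 0.045 in their deviations, so the replicate numbers were not taken as pairing. With the trends removed, the median log2 fold change of the mitochondrial members was −0.036, of the mitochondrial complex I genes −0.044 (−0.046 with the replicate block), of complex II −0.060 (−0.065) and of the mitochondrial complex IV genes −0.017 (−0.017). The same medians without 1 library spanned −0.011 to 0.037 for all mitochondrial members, −0.032 to 0.055 for mitochondrial complex I, −0.049 to −0.003 for complex II and 0.003 to 0.043 for mitochondrial complex IV. For nuclear complex I the span was −0.036 to −0.01, and for nuclear complex III −0.008 to 0.032. It was −0.028 to 0.026 for nuclear complex IV, −0.045 to 0.0 for nuclear complex V and −0.035 to 0.028 for the NDUFAF factors. Among 47 genes followed by name, 12 changed sign in some setting and none of these was called by edgeR: with the trends removed, without and with the replicate block, MT-ATP8 was −0.036 and −0.033, MT-CO1 −0.005 and −0.005, MT-CO2 −0.034 and −0.034, MT-CO3 −0.017 and −0.017, MT-ND1 −0.017 and −0.017, MT-ND4L −0.009 and −0.008, MT-ND6 −0.044 and −0.046, and ATP5MC2 −0.021 and −0.022. ATP5MC2 was also −0.004 with limma-voom, −0.004 without TMM, −0.001 with no filter and −0.0 with the replicate block. Without 1 library, MT-ATP8 ranged from −0.023 to 0.075, MT-CO2 from −0.011 to 0.032, MT-ND1 from −0.009 to 0.055, MT-ND2 from −0.032 to 0.006, MT-ND6 from −0.039 to 0.077, NDUFA4L2 from −0.353 to 0.059, ATP5F1E from −0.025 to 0.079, ATP5MC2 from −0.054 to 0.042 and ATP5PD from −0.074 to 0.0. Of all values of named genes under an alternative, 642 kept direction and side of the threshold, 40 lost the threshold, 35 gained it and 35 changed sign. The cause was not tested. With 3 libraries per group, the median 95% interval of a tested member reached 0.091 on the log2 scale to either side, before adjustment over all genes. Differences smaller than that were mostly not detectable here, and larger ones could be missed too. MT-ND3, at 0.155, was the smallest difference called in the main fit, while COX6C, at 0.141, was not called. At least 100 counts in every library were found for 99 of the 101 tested members.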

Other observations

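The summed level of the 99 nuclear members varied more among NC libraries (9371 to 9892 CPM) than among ORF-Flag libraries (9617 to 9676 CPM). The median deviation of the 88 tested nuclear members from their mean over the 6 libraries was 0.007, −0.032 and 0.042 on the log2 scale in NC replicates 1 to 3 and −0.003, 0.009 and −0.025 in ORF-Flag replicates 1 to 3, while over all genes tested it was between −0.001 and 0.002. For the 13 mitochondrial members, the deviation was −0.049, 0.023 and 0.013 in NC and −0.062, 0.036 and 0.016 in ORF-Flag. NC replicate 3, the library with the highest nuclear deviation, was the one whose removal raised the number of members called to 23.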
